A study of Mus musculus with 12 samples.

Results

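Eomes and 8 other genes used as markers of basal intermediate progenitors in the embryonic mouse cortex were followed across 3 groups of RNA-seq libraries. The 9 genes (Eomes, Insm1, Hes6, Btg2, Gadd45g, Tac2, Sstr2, Mfap4 and Rhbdl3) were chosen by name and matched to the Ensembl identifiers of the count tables. All 9 were found among the 48709 identifiers, and all 9 were among the 16511 genes that passed the filter on low counts and were tested. The groups were a conditional knockout (cKO) of BAF155, a group labelled Pax6 cKO and a control, with 4 libraries each. All came from embryonic cortex at day E15.5 of the strain C57BL/6J. BAF155 is the protein made from Smarcc1 and belongs to the core of the BAF complex, which remodels chromatin, and Pax6 is a transcription factor that radial glia express. By its title and design the study asked how loss of BAF155 affects the production of basal progenitors, and it set each cKO against control. The Cre driver, the genotype of the controls and the number of embryos per library were not stated in the sources used here.

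Radial glia divide at the ventricle and give rise to intermediate progenitors, which leave the ventricular surface and divide in the subventricular zone. Most of these divisions are terminal and yield a pair of neurons. Eomes, also called Tbr2, is the T-box transcription factor that marks this cell type, and Insm1 and Hes6 are transcription factors switched on around the same step. Btg2 and Gadd45g belong to families that restrain cell division. Tac2 encodes the precursor of the peptide neurokinin B, and Sstr2 a receptor for the peptide somatostatin. Mfap4 encodes a protein of extracellular microfibrils, and Rhbdl3 a membrane protein of the rhomboid family.

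Relative to control, Eomes, Tac2 and Sstr2 were lower in both BAF155 cKO and the libraries labelled Pax6 cKO. Btg2 and Rhbdl3 were lower against control in the libraries labelled Pax6 cKO, and so was Insm1, in a call that most single libraries decided. Hes6, Gadd45g and Mfap4 passed the test against control in neither group. These 2 groups also differed from each other directly: Btg2, Sstr2, Mfap4 and Rhbdl3 were higher and Tac2 was lower in BAF155 cKO than in the libraries labelled Pax6 cKO. None of these 5 direct calls was made with sex as a term, where only 6 of the 16511 genes were called higher and 7 lower.

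Levels are given in counts per M reads of the scaled library (CPM), listed for replicates 1 to 4 of a group in order, and means with the SD over 4 libraries. A difference is a log2 fold change with its standard error, and a gene is said to be called where edgeR's quasi-likelihood test, with Benjamini-Hochberg adjustment over all genes tested, gave an adjusted p under 0.05. Libraries held 15.16 to 28.26 M reads in BAF155 cKO, 22.81 to 32.05 M in the libraries labelled Pax6 cKO and 21.41 to 30.31 M in control. Smarcc1 was measured at 127 ± 10.8 CPM in BAF155 cKO, 186 ± 6.71 CPM in the libraries labelled Pax6 cKO and 303 ± 68.7 CPM in control. Directly, Smarcc1 was lower in BAF155 cKO than in the libraries labelled Pax6 cKO (adjusted p = 0.0286). This call was lost without BAF155 cKO replicate 1 or 4 or any 1 library labelled Pax6 cKO (adjusted p = 0.0536 to 0.0852). Pax6 went against its label, with 314 ± 40.3 CPM in BAF155 cKO, 389 ± 8.74 CPM in the libraries labelled Pax6 cKO and 110.2 ± 19.1 CPM in control. The deleted exons are not given, so the label could not be checked further and these libraries are called the Pax6-labelled libraries from here on. By Xist and Y-linked genes, all BAF155 cKO libraries were female and all libraries labelled Pax6 cKO were male, while control replicates 1 and 2 were male and 3 and 4 female. By the file names, the Pax6-labelled libraries were run in lane 1 together with the first 2 BAF155 cKO replicates, the other 2 BAF155 cKO replicates in lane 3 and the controls in lane 8. Lane and group cannot be told apart in the comparisons with control. Nothing in the labels says that the 4 libraries of a group are separate embryos, so a p-value weighs a difference against library spread that may be technical.

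The promoters of the 3 genes that were lower than control in BAF155 cKO and in the Pax6-labelled libraries are shown with that of Gadd45g, which was called in neither. They are RefSeq sequences of GRCm38.p6, running from 250 bases before to 50 after the annotated start, on the strand of the gene. Capitals mark E-boxes (CANNTG, the core bound by proneural bHLH factors) and CCAAT boxes on either strand.
Eomes, chr9:118477939-118478238, plus strand: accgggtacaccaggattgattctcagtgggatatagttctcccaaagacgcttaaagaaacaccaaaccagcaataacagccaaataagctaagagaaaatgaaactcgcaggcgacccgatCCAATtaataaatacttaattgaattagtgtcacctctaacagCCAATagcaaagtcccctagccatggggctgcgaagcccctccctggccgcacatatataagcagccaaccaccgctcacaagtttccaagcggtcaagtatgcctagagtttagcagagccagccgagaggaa
Tac2, chr10:127724228-127724527, plus strand: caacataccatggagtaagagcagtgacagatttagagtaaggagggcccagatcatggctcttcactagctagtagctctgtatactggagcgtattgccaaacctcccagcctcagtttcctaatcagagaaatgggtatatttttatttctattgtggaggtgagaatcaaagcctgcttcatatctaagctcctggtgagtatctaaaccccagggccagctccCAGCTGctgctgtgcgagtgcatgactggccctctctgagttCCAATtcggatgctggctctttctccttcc
Sstr2, chr11:113619077-113619376, plus strand: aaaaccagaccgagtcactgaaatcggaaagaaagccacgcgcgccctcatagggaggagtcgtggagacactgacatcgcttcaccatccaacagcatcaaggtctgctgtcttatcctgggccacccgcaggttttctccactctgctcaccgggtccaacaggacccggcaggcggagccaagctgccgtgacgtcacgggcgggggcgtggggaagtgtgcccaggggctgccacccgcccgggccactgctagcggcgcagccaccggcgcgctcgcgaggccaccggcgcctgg
Gadd45g, chr13:51846425-51846724, plus strand: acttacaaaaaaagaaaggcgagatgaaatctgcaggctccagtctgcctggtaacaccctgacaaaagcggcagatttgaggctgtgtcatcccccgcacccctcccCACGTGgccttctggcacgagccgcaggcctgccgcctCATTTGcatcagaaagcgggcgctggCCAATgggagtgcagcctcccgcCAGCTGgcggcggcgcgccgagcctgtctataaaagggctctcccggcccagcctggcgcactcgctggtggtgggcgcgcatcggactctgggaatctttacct
The Eomes window held 0 E-boxes and 2 CCAAT boxes, the Tac2 window 1 of each, the Sstr2 window 0 of each and the Gadd45g window 3 E-boxes and 1 CCAAT box. Across 32851 RefSeq promoters of the same length, 72.3% held an E-box and 37.4% a CCAAT box. The T-box half-site GGTGTGA, searched on both strands, was in 3.98% of all promoters and in none of the 7 windows matched to 6 of the 9 genes. A match of letters describes the window, not binding.

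Eomes, the T-box factor of intermediate progenitors, lies on mm10 chromosome 9 (118478212 to 118486132, plus strand). It was measured at 65.8, 87.1, 54.4 and 48.1 CPM in BAF155 cKO, at 55.8, 52, 50.4 and 52.6 CPM in the Pax6-labelled libraries and at 177, 225, 300.0 and 286 CPM in control. BAF155 cKO and the Pax6-labelled libraries lay wholly below the controls and overlapped each other. Against control Eomes differed by a log2 value of -1.95 (SE 0.18, adjusted p = 3.8e-06) in BAF155 cKO, beside -2.23 (SE 0.18, adjusted p = 6.31e-07) in the Pax6-labelled libraries, or 3.86-fold and 4.69-fold lower. Of the 16511 genes, 0.273% had a lower fold change than Eomes in BAF155 cKO and 0.182% in the Pax6-labelled libraries. Directly, BAF155 cKO minus the Pax6-labelled libraries was 0.28 (SE 0.17, adjusted p = 0.366). The library kit does not mark strand, and 118 bases of Eomes exons overlap the antisense gene Gm33460, which was at 0.436 ± 0.135 CPM in BAF155 cKO, 0.416 ± 0.203 CPM in the Pax6-labelled libraries and 1.12 ± 0.356 CPM in control. In RNA from whole tissue, fewer cells of a type and less RNA per cell cannot be told apart.

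Insm1, a zinc finger factor that in mouse promotes the formation of basal progenitors, lies on chromosome 2 (146221921 to 146225020, plus strand). It was at 114, 155, 104 and 89.6 CPM in BAF155 cKO, at 105, 111, 104 and 106 CPM in the Pax6-labelled libraries and at 105, 147, 174 and 157 CPM in control. Both groups overlapped the controls, in which replicate 1 was lowest, and BAF155 cKO replicate 2 stood above the other 3 of its group. The difference from control was -0.33 (SE 0.15, adjusted p = 0.15) in BAF155 cKO, beside -0.45 (SE 0.15, adjusted p = 0.034) in the Pax6-labelled libraries. In BAF155 cKO the call was gained without BAF155 cKO replicate 2 (-0.51, adjusted p = 0.016) and without control replicate 1 (adjusted p = 0.0312). In the Pax6-labelled libraries it was lost when any 1 of these 4 libraries or of control replicates 2, 3 and 4 was left out (adjusted p = 0.0533 to 0.119) as well as without the filter on low counts (adjusted p = 0.0915) and against the male controls alone (adjusted p = 0.417). The direct difference was 0.12 (SE 0.15, adjusted p = 0.702).

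Hes6, a bHLH factor that counteracts Hes1, lies on chromosome 1 (91411483 to 91414038, minus strand). It was at 119, 130.5, 106 and 119 CPM in BAF155 cKO, at 122, 129.8, 116 and 113 CPM in the Pax6-labelled libraries and at 104, 101, 112 and 106 CPM in control. All 4 Pax6-labelled libraries lay just above all 4 controls, and BAF155 cKO overlapped both groups. The differences from control were 0.16 (SE 0.08, adjusted p = 0.157) in BAF155 cKO, beside 0.18 (SE 0.08, adjusted p = 0.078) in the Pax6-labelled libraries, and the direct difference was -0.02 (SE 0.08, adjusted p = 0.92).

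**Figure D1:**
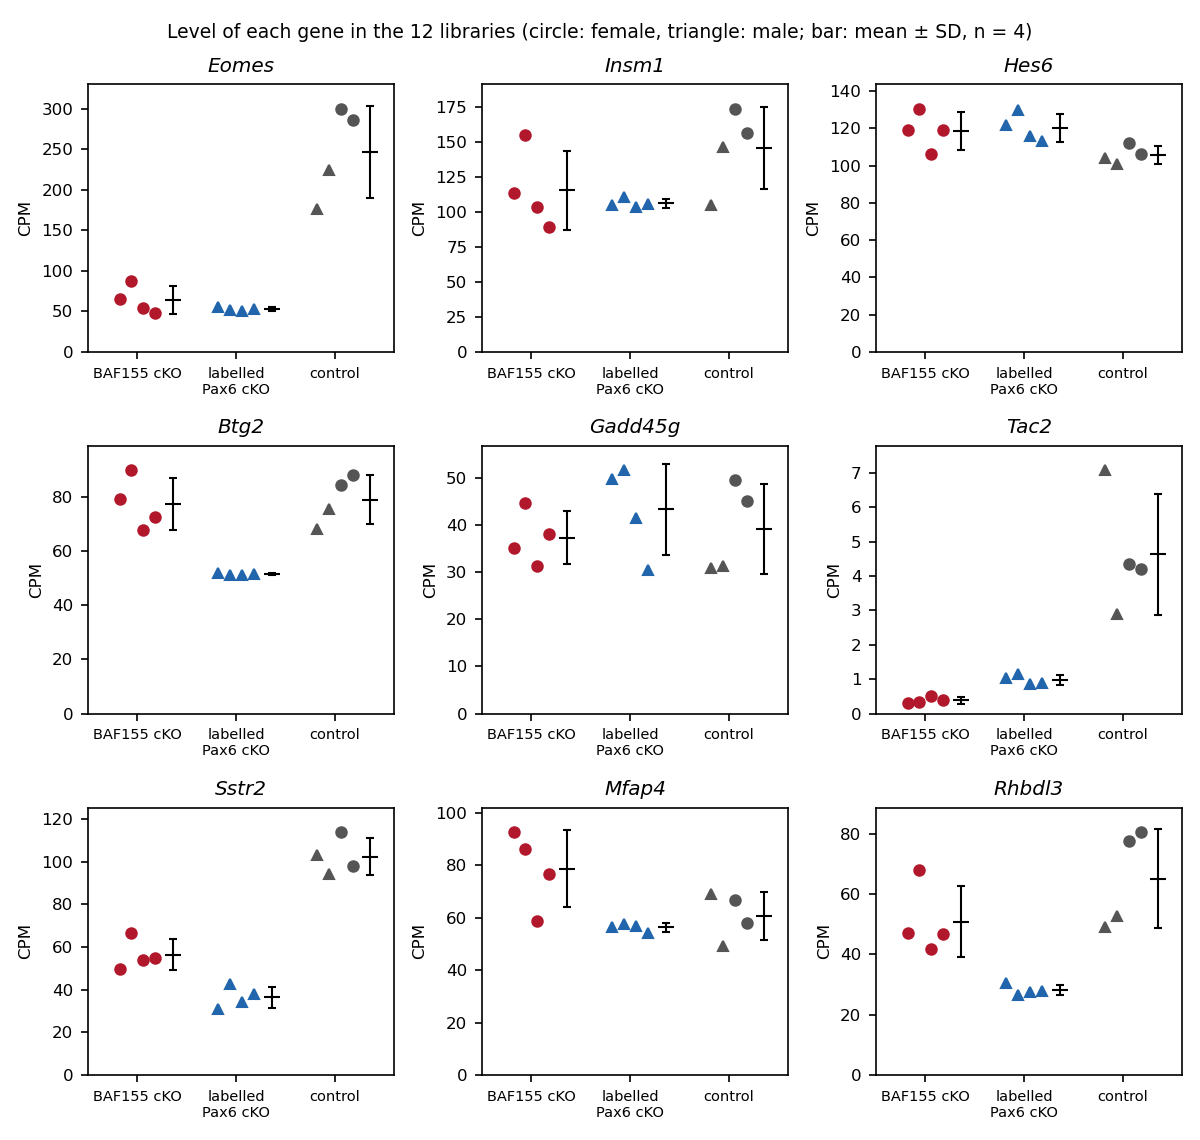
Level in CPM of each of the 9 genes in every library, with BAF155 cKO, the Pax6-labelled libraries and control from left to right (circles female, triangles male, bars mean ± SD, n = 4). Eomes, Tac2 and Sstr2 lie below control in both other groups without overlap, while Gadd45g overlaps across all 3 groups.

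Btg2, also known as Tis21 and a marker of progenitors that go on to make neurons, lies on chromosome 1 (134075170 to 134079120, minus strand). It was at 79.4, 90.0, 67.8 and 72.6 CPM in BAF155 cKO, at 51.9, 51.4, 51.2 and 51.8 CPM in the Pax6-labelled libraries and at 68.3, 75.6, 84.4 and 88.3 CPM in control. The Pax6-labelled libraries were nearly identical and lay below both other groups, which overlapped. The difference from control was -0.03 (SE 0.10, adjusted p = 0.853) in BAF155 cKO, beside -0.62 (SE 0.10, adjusted p = 0.000397) in the Pax6-labelled libraries. Directly, BAF155 cKO was higher by 0.59 (SE 0.10, adjusted p = 0.00337).

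Gadd45g, a stress-inducible gene whose product inhibits cell cycle kinases, lies on chromosome 13 (51846678 to 51848468, plus strand). It was at 35.1, 44.6, 31.3 and 38 CPM in BAF155 cKO, at 49.7, 51.6, 41.4 and 30.5 CPM in the Pax6-labelled libraries and at 30.8, 31.3, 49.6 and 45 CPM in control. The 3 groups overlapped, and the controls split into a lower pair, the male replicates 1 and 2, and a higher pair, the female replicates 3 and 4. The differences from control were -0.07 (SE 0.18, adjusted p = 0.806) in BAF155 cKO, beside 0.15 (SE 0.18, adjusted p = 0.54) in the Pax6-labelled libraries, with a direct difference of -0.21 (SE 0.18, adjusted p = 0.524).

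Tac2, the neurokinin B precursor, lies on chromosome 10 (127724478 to 127731768, plus strand) and was the scarcest of the 9. It had 8, 9, 8 and 6 reads in BAF155 cKO, 29, 28, 28 and 20 reads in the Pax6-labelled libraries and 214, 61, 90 and 88 reads in control. These are 0.311, 0.321, 0.507 and 0.383 CPM in BAF155 cKO, 1.02, 1.14, 0.853 and 0.873 CPM in the Pax6-labelled libraries and 7.07, 2.89, 4.35 and 4.2 CPM in control. The 3 groups did not overlap, with BAF155 cKO lowest and control highest, and control replicate 1 stood above the other controls. The difference from control was -3.65 (SE 0.30, adjusted p = 1.1e-06) in BAF155 cKO, beside -2.26 (SE 0.25, adjusted p = 1.87e-05) in the Pax6-labelled libraries, or 12.52-fold and 4.79-fold lower. The direct difference was -1.39 (SE 0.34, adjusted p = 0.031). This last call rested on few reads and was lost on leaving out BAF155 cKO replicate 1 or 2 or any 1 Pax6-labelled library (adjusted p = 0.058 to 0.0913) and under limma-voom (adjusted p = 0.0775).

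Sstr2, the somatostatin receptor, lies on chromosome 11 (113619342 to 113626028, plus strand). It was at 49.9, 66.7, 53.9 and 55 CPM in BAF155 cKO, at 31.1, 42.5, 34 and 38.1 CPM in the Pax6-labelled libraries and at 103, 94.2, 114 and 98 CPM in control. The 3 groups again did not overlap, and here the Pax6-labelled libraries were lowest. The difference from control was -0.86 (SE 0.11, adjusted p = 0.000123) in BAF155 cKO, beside -1.49 (SE 0.11, adjusted p = 2.99e-07) in the Pax6-labelled libraries. BAF155 cKO was higher than the Pax6-labelled libraries by 0.63 (SE 0.11, adjusted p = 0.0048). Tac2 and Sstr2 thus ranked BAF155 cKO and the Pax6-labelled libraries in opposite order.

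Mfap4, the microfibril protein, lies on chromosome 11 (61485431 to 61488900, plus strand). It was at 92.8, 86.4, 58.9 and 76.8 CPM in BAF155 cKO, at 56.6, 57.8, 56.8 and 54.1 CPM in the Pax6-labelled libraries and at 69, 49.1, 66.9 and 58 CPM in control. BAF155 cKO replicates 1, 2 and 4 lay above all controls and replicate 3 within their range. The difference from control was 0.38 (SE 0.13, adjusted p = 0.0603) in BAF155 cKO, beside -0.11 (SE 0.13, adjusted p = 0.522) in the Pax6-labelled libraries. In BAF155 cKO the gene was called higher than control without BAF155 cKO replicate 3 (adjusted p = 0.0129) or control replicate 1 (adjusted p = 0.0362), and by DESeq2 (adjusted p = 0.042). Directly, BAF155 cKO was higher than the Pax6-labelled libraries by 0.49 (SE 0.13, adjusted p = 0.0422), a call lost on leaving out any 1 of the 8 libraries compared other than BAF155 cKO replicate 3 (adjusted p = 0.0536 to 0.117) and under limma-voom (adjusted p = 0.0562). On the other strand, 89 bases of Mfap4 exons overlap Mapk7, which was at 127 ± 16 CPM in BAF155 cKO, 115 ± 8.8 CPM in the Pax6-labelled libraries and 142 ± 11.3 CPM in control.

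Rhbdl3, the rhomboid family member, lies on chromosome 11 (80300912 to 80355955, plus strand). It was at 47.2, 68, 41.8 and 46.7 CPM in BAF155 cKO, at 30.4, 26.4, 27.6 and 27.9 CPM in the Pax6-labelled libraries and at 49.2, 52.7, 77.7 and 80.7 CPM in control. The Pax6-labelled libraries lay below both other groups, and BAF155 cKO overlapped the controls through its replicate 2. The difference from control was -0.35 (SE 0.17, adjusted p = 0.157) in BAF155 cKO, beside -1.21 (SE 0.17, adjusted p = 0.000154) in the Pax6-labelled libraries. Without BAF155 cKO replicate 2 it was called lower than control in BAF155 cKO (-0.52, adjusted p = 0.0228). BAF155 cKO was higher than the Pax6-labelled libraries by 0.86 (SE 0.17, adjusted p = 0.01), a call lost without the filter on low counts (adjusted p = 0.0531) and with BAF155 cKO lane 3 alone (adjusted p = 0.0986).

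In all, 3 of the 9 genes were called lower than control in BAF155 cKO and 0 higher, where 7.56% of all genes tested were called lower and 6.04% higher. In the Pax6-labelled libraries, 6 of the 9 were called lower and 0 higher, where 18.9% of all genes were called lower and 16.6% higher. The median log2 fold change of the 9 genes was -0.33 in BAF155 cKO and -0.62 in the Pax6-labelled libraries, beside 0.01 and 0.02 over all genes tested. The 2 comparisons share their control libraries. All 4 BAF155 cKO libraries lay below all 4 controls for 3 of the 9 genes and above them for 0, where this held for 7.95% and 6.47% of all genes. All 4 Pax6-labelled libraries lay below the controls for 5 of the 9 and above them for 1, Hes6, where this held for 18.3% and 17.2% of all genes. Directly, 4 of the 9 were higher in BAF155 cKO than in the Pax6-labelled libraries and 1 was lower, where 2.3% and 2.01% of all genes were called higher and lower. The same 5 genes were those whose 4 libraries lay wholly above or wholly below the other 4, where 7.5% of all genes lay above and 7.83% below.

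**Figure D2:**
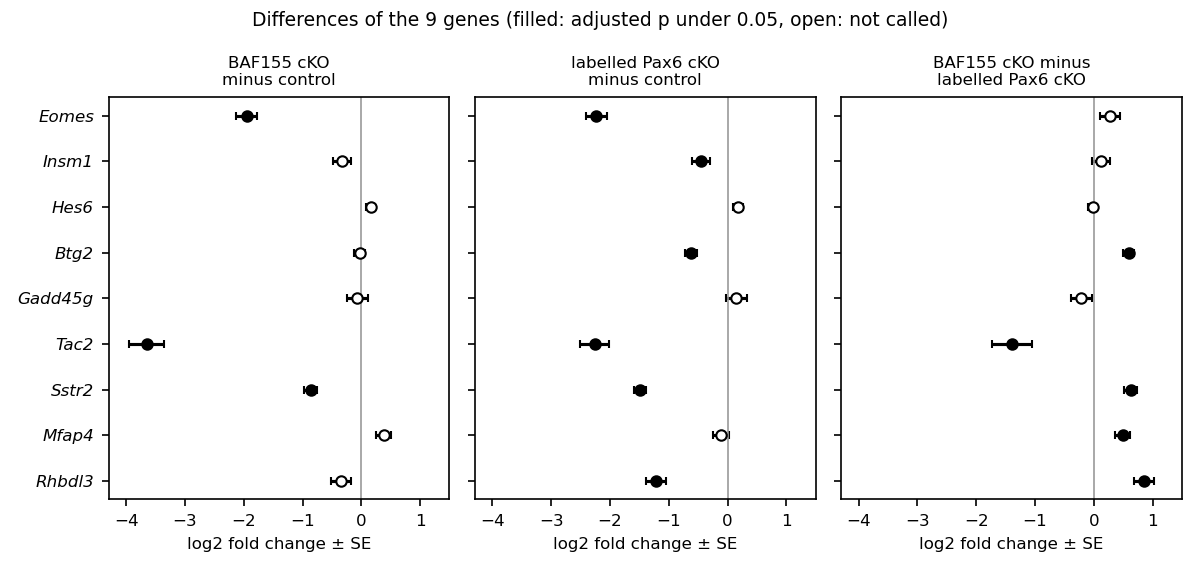
Log2 fold change ± SE of the 9 genes for BAF155 cKO minus control, the Pax6-labelled libraries minus control and BAF155 cKO minus the Pax6-labelled libraries, with filled points at an adjusted p under 0.05. Filled points lie left of 0 for 3 genes in the first panel and 6 in the second, and in the third for Tac2 alone, with 4 genes filled to the right.

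The sex of the embryos moved with the groups, so the comparisons were repeated against the 2 controls of the same sex. Against female controls, BAF155 cKO was lower in Eomes (-2.21), Tac2 (-3.54) and Sstr2 (-0.93), and the test was also passed by Insm1 (-0.53, adjusted p = 0.0265) and Rhbdl3 (-0.65, adjusted p = 0.00933). Against male controls, the Pax6-labelled libraries were lower in Eomes (-1.94), Tac2 (-2.37), Sstr2 (-1.44), Rhbdl3 (-0.86) and Btg2 (-0.48, adjusted p = 0.0124). This gave 5 of 9 genes lower and 0 higher in each. Of all genes, 14.5% were then lower and 10.7% higher in BAF155 cKO, but 4.9% lower and 3.07% higher in the Pax6-labelled libraries. The direct contrast sets female against male libraries, and with sex as a term, estimated from 2 controls of each sex, 0 of the 9 genes and 13 of all genes were called. Eomes and Insm1 then lay on the other side of 0 in the direct contrast (-0.26 and -0.27). Within lane 1, which held the Pax6-labelled libraries and BAF155 cKO replicates 1 and 2, the direct difference was 0.73 for Btg2 (adjusted p = 0.00293), 0.69 for Sstr2 (adjusted p = 0.0168), 0.68 for Mfap4 (adjusted p = 0.00996), 1.05 for Rhbdl3 (adjusted p = 0.0122) and -1.59 for Tac2 (adjusted p = 0.0662). With BAF155 cKO replicates 3 and 4 alone, those of lane 3, Sstr2 was the only one of the 9 called in the direct contrast (0.59, adjusted p = 0.0232).

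**Figure D3:**
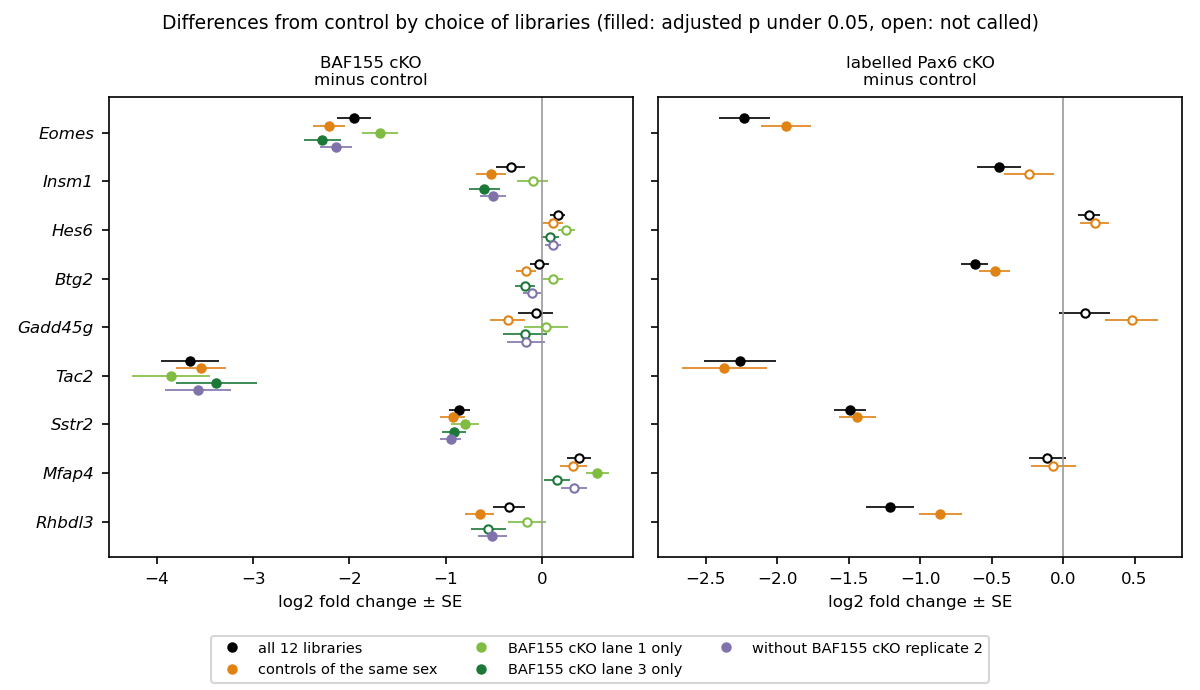
Log2 fold change from control ± SE of the 9 genes for several choices of libraries, with BAF155 cKO on the left and the Pax6-labelled libraries on the right (filled points at an adjusted p under 0.05). Eomes, Tac2 and Sstr2 are filled and left of 0 for every choice drawn, while Insm1 and Rhbdl3 in BAF155 cKO are filled for some choices only.

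Per kilobase of exon, which allows levels of different genes to be set side by side, the order of the 9 genes differed between groups. In control, Eomes led at 59.5 ± 13.6 CPM per kb with Hes6 beside it at 58.5 ± 2.49, and their ranges overlapped. In BAF155 cKO, Hes6 led at 65.5 ± 5.52 CPM per kb and Eomes had rank 7 at 15.4 ± 4.13, with a range that overlapped that of Rhbdl3 at 10.8 ± 2.46. In the Pax6-labelled libraries, Hes6 led at 66.4 ± 4.11 CPM per kb and Eomes again had rank 7, at 12.7 ± 0.539, apart from its neighbours Sstr2 at 17 ± 2.32 and Rhbdl3 at 5.94 ± 0.352. Insm1, Gadd45g, Mfap4 and Btg2 filled the middle of the order in every group. Their ranges overlapped from one to the next in BAF155 cKO, from 41 ± 7.67 CPM per kb for Mfap4 to 28.2 ± 3.51 for Btg2, and in control, from 47 ± 9.45 for Insm1 to 28.9 ± 3.27 for Btg2. Tac2 was last in each, at 0.276 ± 0.0656 CPM per kb in BAF155 cKO, 0.705 ± 0.0973 in the Pax6-labelled libraries and 3.36 ± 1.27 in control.

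A further 23 genes of basal progenitors and their newborn neurons, all tested, gave 12 lower and 2 higher than control in BAF155 cKO, where 7.56% and 6.04% of all genes were called lower and higher. Of the same genes, 14 were lower and 5 higher than control in the Pax6-labelled libraries, where these shares were 18.9% and 16.6%. The median log2 fold changes were -0.41 in BAF155 cKO and -0.71 in the Pax6-labelled libraries, beside 0.01 and 0.02 over all genes tested. Neurod4, a proneural bHLH factor, had the smallest adjusted p among the lower genes of both comparisons, at -3.25 (SE 0.17, adjusted p = 6.36e-09) in BAF155 cKO, beside -4.35 (SE 0.18, adjusted p = 3.82e-10) in the Pax6-labelled libraries. Heg1, a membrane receptor known from heart and vessel development, was at -1.60 (adjusted p = 1.68e-08) in BAF155 cKO and -2.10 (adjusted p = 5.93e-10) in the Pax6-labelled libraries. Unc5d, a netrin receptor of multipolar cells, was at -1.47 (adjusted p = 3.3e-08) in BAF155 cKO and -2.02 (adjusted p = 5.93e-10) in the Pax6-labelled libraries. Higher than control in BAF155 cKO were Dll3, a Notch pathway ligand (0.85, adjusted p = 0.000717), and Cdkn1c, a cell cycle inhibitor (0.45, adjusted p = 0.0312). The Cdkn1c call was lost without BAF155 cKO replicate 2 or control replicate 2 or 3 (adjusted p = 0.0514 to 0.0831) and against the female controls alone (adjusted p = 0.115). Higher in the Pax6-labelled libraries were Smoc1, a secreted matricellular protein (0.65, adjusted p = 7.7e-05), and Mxd3, a partner of Max (0.77, adjusted p = 0.000441). Exons of Heg1, Cdkn1c and Mxd3 overlap other genes. Directly, 8 of the 23 genes were higher and 2 lower in BAF155 cKO than in the Pax6-labelled libraries, where 2.3% and 2.01% of all genes were. None of the 23 was called with sex as a term, where only 6 of all 16511 genes were called higher and 7 lower. The counts against controls of the same sex were 14 lower and 2 higher in BAF155 cKO, where 14.5% and 10.7% of all genes were, and 11 lower and 4 higher in the Pax6-labelled libraries, where 4.9% and 3.07% were.

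**Figure D4:**
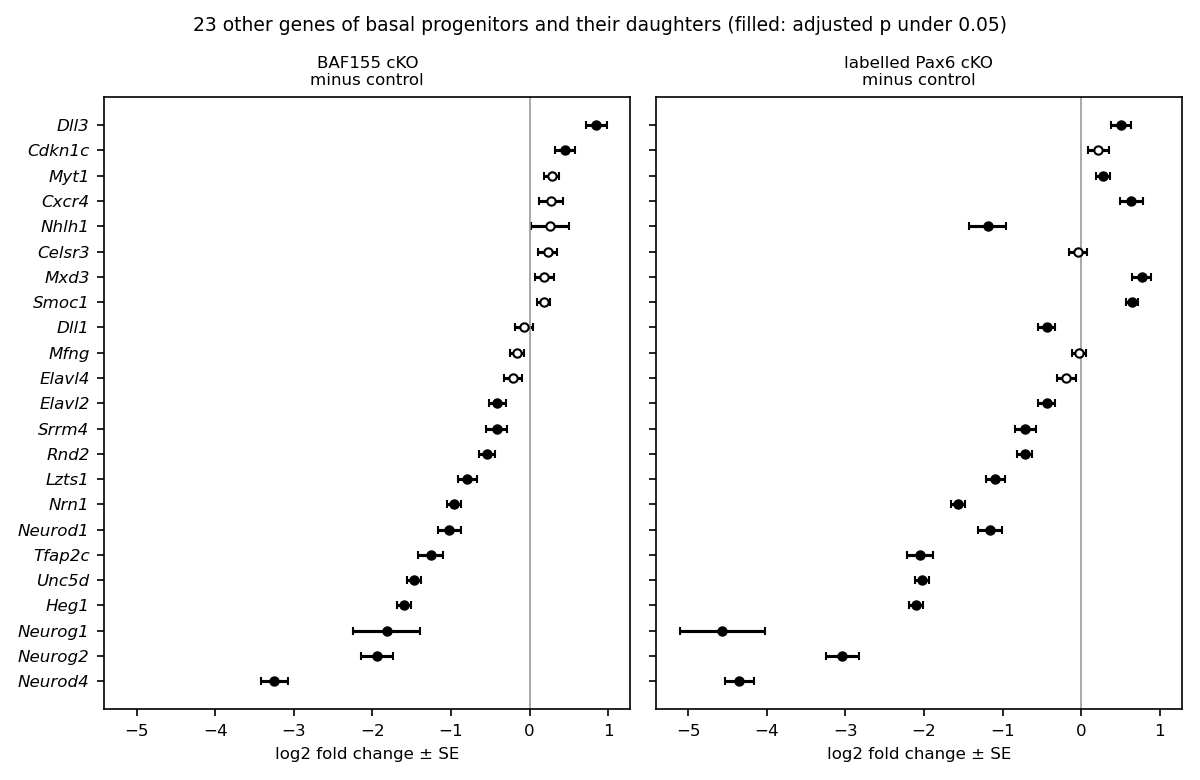
Log2 fold change from control ± SE of 23 other genes of basal progenitors and their daughters, with BAF155 cKO on the left and the Pax6-labelled libraries on the right (filled points at an adjusted p under 0.05). Neurod4, Neurog2, Neurog1, Heg1 and Unc5d lie farthest to the left in BAF155 cKO, and Dll3 farthest to the right.

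Relatives of the 9 genes were followed family by family. Among 6 other T-box genes tested, Tbr1, a factor of deep-layer neurons, was at -0.56 (SE 0.18, adjusted p = 0.0479) in BAF155 cKO, beside -1.26 (SE 0.18, adjusted p = 0.000171) in the Pax6-labelled libraries, and was higher in the direct contrast (0.71, adjusted p = 0.0356). The call in BAF155 cKO was lost without BAF155 cKO replicate 1, 3 or 4 or control replicate 3 or 4 (adjusted p = 0.0658 to 0.166). The direct one was lost without BAF155 cKO replicate 1, 2 or 3 or any 1 Pax6-labelled library (adjusted p = 0.0689 to 0.103), with the replicate block (adjusted p = 0.0557) and with sex as a term (-0.06, adjusted p = 0.943). Of 8 relatives and partners of Insm1, its paralog Insm2 was higher in BAF155 cKO (0.97, SE 0.19, adjusted p = 0.00383) and in the Pax6-labelled libraries (0.67, SE 0.19, adjusted p = 0.0136), the second call lost without control replicate 3 (adjusted p = 0.0513). Insm2 was scarce, at 3.63 ± 0.541 CPM in BAF155 cKO, 2.91 ± 0.409 CPM in the Pax6-labelled libraries and 1.83 ± 0.424 CPM in control. Rcor2, a corepressor of the LSD1 complex, was lower in the Pax6-labelled libraries (-0.72, SE 0.13, adjusted p = 0.000992). Rcor1 (-0.28, adjusted p = 0.0427) and Gse1 (-0.47, adjusted p = 0.0327), of the same complex, were called there too. The Rcor1 call was lost without any 1 Pax6-labelled library or control replicate 2, 3 or 4 (adjusted p = 0.0536 to 0.135). The Gse1 call was lost without replicate 3 or 4 of either group (adjusted p = 0.0721 to 0.132), and exons of both genes overlap other genes.

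Of 5 other Hes and Hey genes tested, Hes1, the Notch effector that Hes6 counteracts, was at -0.56 (SE 0.16, adjusted p = 0.0337) in BAF155 cKO, beside -0.85 (SE 0.16, adjusted p = 0.00151) in the Pax6-labelled libraries. Heyl was at -0.48 (adjusted p = 0.0303) in BAF155 cKO and -0.43 (adjusted p = 0.0211) in the Pax6-labelled libraries, and Hes5 at -0.50 (adjusted p = 0.0382) in the Pax6-labelled libraries. The Hes1 and Heyl calls in BAF155 cKO were lost without BAF155 cKO replicate 1, 3 or 4 or control replicate 3 or 4 (adjusted p = 0.0521 to 0.111). The Heyl call in the Pax6-labelled libraries was lost without replicate 3 of that group or control replicate 3 or 4, and the Hes5 call without replicate 3 or 4 of either group (adjusted p = 0.0605 to 0.127 for both genes). In the Btg and Tob family, Tob2 was at -0.64 (SE 0.16, adjusted p = 0.0172) in BAF155 cKO, a call lost without BAF155 cKO replicate 4 or control replicate 3 (adjusted p = 0.0618 and 0.0614), and at -0.68 (SE 0.16, adjusted p = 0.00518) in the Pax6-labelled libraries. In the Pax6-labelled libraries, Btg1 was higher than control (0.71, SE 0.10, adjusted p = 0.000162), opposite to its relative Btg2, and Tob1 was lower (-0.41, SE 0.10, adjusted p = 0.00612). Btg1 was lower in BAF155 cKO than in the Pax6-labelled libraries (-0.44, adjusted p = 0.0236), a call lost without BAF155 cKO replicate 1 or 3 or without Pax6-labelled replicate 2, 3 or 4 (adjusted p = 0.0558 to 0.0819) and with sex as a term (adjusted p = 0.0765). Of the 2 other Gadd45 genes none was called, and the more abundant, Gadd45a, was at 4.46 ± 0.55 CPM in BAF155 cKO, 4.83 ± 0.627 CPM in the Pax6-labelled libraries and 4.13 ± 0.805 CPM in control. Exons of Hes5 and Tob2 overlap other genes.

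Around Tac2, none of the 3 other tachykinin genes and receptors tested was called, and Tac1, the most abundant, varied widely within BAF155 cKO (SD 11.1 CPM) and control (SD 12.9 CPM, mean 12.7 CPM). Of the 4 other somatostatin genes tested, Sst, the ligand of Sstr2, was at 58.8 ± 24.7 CPM in BAF155 cKO, 34 ± 9.02 CPM in the Pax6-labelled libraries and 25.7 ± 8.38 CPM in control. Its call in BAF155 cKO (1.19, SE 0.31, adjusted p = 0.0247) was lost without BAF155 cKO replicate 3 or 4 or control replicate 1, 3 or 4 (adjusted p = 0.0563 to 0.0974). The receptor Sstr3 was at -0.93 (SE 0.24, adjusted p = 0.0215) in BAF155 cKO, beside -1.82 (SE 0.25, adjusted p = 0.00013) in the Pax6-labelled libraries. The first of these calls was lost without BAF155 cKO replicate 1 or 4 or control replicate 3 or 4 (adjusted p = 0.0524 to 0.076). None of 6 other microfibril, fibrillin and elastin genes was called, and Mfap3 was at 148 ± 9.81 CPM in BAF155 cKO, 144 ± 6.37 CPM in the Pax6-labelled libraries and 141 ± 5.02 CPM in control. Of 6 other rhomboid genes, Rhbdd2 was called in the Pax6-labelled libraries (-0.25, adjusted p = 0.0229) and in the direct contrast (0.32, adjusted p = 0.031), and its exons overlap pseudogenes. The first of these was lost without control replicate 4 or without Pax6-labelled replicate 1 or 4, and the second without BAF155 cKO replicate 1 or 3 or any 1 Pax6-labelled library (adjusted p = 0.0501 to 0.0994). The direct Rhbdd2 call was also lost with the replicate block (adjusted p = 0.0612) and with sex as a term (adjusted p = 0.769). Parl, which had the highest mean of these 6 over the 12 libraries, was called in neither comparison with control. Against the male controls alone, the calls in the Pax6-labelled libraries were lost for Insm2, Rcor1, Gse1, Heyl, Hes5, Tob1, Tob2 and Rhbdd2 (adjusted p = 0.0706 to 0.577), and against the female controls alone the Sst call in BAF155 cKO was lost (adjusted p = 0.0561).

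The genes whose pattern was most like that of each of the 9 were ranked by the root mean square difference of log2(CPM + 0.5), centred on the control mean, over the 12 libraries and among 13990 genes. Nearest to Eomes were Sema5a (0.24), Thsd4 (0.24), Heg1 (0.29), Dmrta1 (0.30) and Pdlim3 (0.31). Sema5a, a semaphorin, was at 42.8 CPM in BAF155 cKO, 35.1 CPM in the Pax6-labelled libraries and 148 CPM in control. Among the 9 genes themselves, Tac2 (0.59) and Sstr2 (0.79) were the least distant from Eomes, and Hes6 the most distant (1.85). Nearest to Tac2 were Aldoc (0.37), Pdlim3 (0.41) and Paqr8 (0.45), and nearest to Sstr2 were Hs3st1 (0.11), Ptgfrn (0.15) and Rasgef1b (0.16). Rhbdl3 lay nearest to Crb2 (0.12), Kcnq3 (0.13) and Notch3 (0.18), and Btg2 to Pag1, Trrap and Plxna2 (0.09 each). For Insm1 these were Rfc1, Zfp536 and Zbtb39 (0.08 each), and for Hes6 they were Ddx39 (0.07), Ccnj (0.07) and Wdr73 (0.08). For Gadd45g they were Plekhh3 (0.15), Atoh8 (0.15) and Rnaseh2c (0.16), and for Mfap4 they were Angel1 (0.14), Mdn1 (0.15) and Tm9sf1 (0.15). A small distance is easily reached by genes that change little, so the values do not compare across the 9. The added 0.5 CPM also shrinks the differences of scarce genes. Dmrta1 and Pdlim3, at 4.18 and 3.26 CPM in control, had log2 fold changes of -2.90 and -2.99 in BAF155 cKO, beside -1.95 for Eomes. In the Pax6-labelled libraries they were at -3.62 and -3.01, beside -2.23 for Eomes. Tac2, scarce as well, was at -3.65 and -2.26. Nearness of these 3 to Eomes is thus not an equal fold change in BAF155 cKO. In the Pax6-labelled libraries this holds for Dmrta1 and Pdlim3, while Tac2 was close to Eomes.

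Summed levels of markers of other cells shifted between groups for some cell types and overlapped across all groups for others. The summed level of 10 ventral and GABAergic markers was 1170.1 to 1317 CPM in BAF155 cKO, 1357 to 1473 CPM in the Pax6-labelled libraries and 588 to 858 CPM in control, with 8 and then 9 of the 10 called higher than control. Of all genes, 6.04% were called higher than control in BAF155 cKO and 16.6% in the Pax6-labelled libraries, and 7.56% and 18.9% lower. The 8 cortical neuron markers summed to 6513 to 8415 CPM in BAF155 cKO, 7249.7 to 8372 CPM in the Pax6-labelled libraries and 8739 to 9619.6 CPM in control. Of these 8, 3 were called lower and 0 higher than control in BAF155 cKO, and 5 lower and 1 higher, Stmn2, in the Pax6-labelled libraries. The 8 radial glia markers, Pax6 among them, summed to 1993 to 2268 CPM in BAF155 cKO, 2319 to 2515 CPM in the Pax6-labelled libraries and 2229.7 to 2395 CPM in control. Of these 8, 4 were called lower and 1 higher, Pax6, in BAF155 cKO, and 5 lower and 2 higher, Pax6 and Fabp7, in the Pax6-labelled libraries. The 5 choroid plexus markers summed to 3.61 to 13.3 CPM in BAF155 cKO, 15.4 to 325 CPM in the Pax6-labelled libraries and 12.2 to 29 CPM in control. In the Pax6-labelled libraries Ttr alone was at 154 ± 132 CPM, beside a mean sum of 158 CPM. The 6 erythroid markers summed to 327 to 652 CPM in BAF155 cKO, 496 to 555 CPM in the Pax6-labelled libraries and 262 to 369 CPM in control. In the same order of groups, the 6 endothelial markers summed to 98.6 to 163, 136 to 156 and 125 to 153 CPM. Sums were 158 to 224, 216 to 244 and 159 to 219 CPM for 5 pericyte markers. Rgs5 alone averaged 126, 164 and 111 CPM, beside mean sums of 195, 232 and 185 CPM. Of these 5, 0 were called higher and 1 lower than control in BAF155 cKO. In the Pax6-labelled libraries 2 were called higher and 1 lower. For 7 microglia markers the sums were 39.9 to 56.8, 56.4 to 68.6 and 56 to 71.8 CPM. For 7 markers of meninges they were 39.7 to 50.1, 34.8 to 38.3 and 28.9 to 38.3 CPM. Pdgfra alone averaged 29.1, 20.1 and 18.9 CPM, beside mean sums of 45.9, 37 and 33.4 CPM. Of the 6 tested, 2 were called higher than control in BAF155 cKO and 1 in the Pax6-labelled libraries, with 0 lower. For 5 thalamus markers the sums were 211 to 357, 195 to 238 and 259.7 to 399 CPM. Most of this was Lhx2, with means of 211, 182 and 287 CPM beside mean sums of 268, 216 and 324 CPM. The next largest, Lhx9, was at 44.5, 24.8 and 23.2 CPM. Of the 5, 1 was called higher and 1 lower than control in BAF155 cKO. In the Pax6-labelled libraries 0 were called higher and 2 lower. Mitochondrial reads made up 1.57 to 3.27% in BAF155 cKO, 2.04 to 2.92% in the Pax6-labelled libraries and 1.21 to 2.27% in control. The part of these shifts in the levels of the 9 genes was not tested.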

How the data were processed

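The values were raw counts of reads per gene as the authors deposited them, in 1 file per library and with no header. The submitters' processing notes name the build mm10; aligner, counter and annotation are not given in the sources used. Per the labels' protocols, the RNA was prepared with RNeasy and the libraries with TruSeq RNA v2, a kit that does not mark strand. GENCODE M21 held 48349 of the 48709 identifiers and gave symbols, coordinates, overlaps and exon lengths. Sex was read from Xist and Y-linked genes and lanes from the names of the deposited files.

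The analysis used edgeR 4.0.16 in R 4.3.3: filterByExpr (leaving 16511 genes), TMM scaling and a robust quasi-likelihood model over all 12 libraries with a coefficient for each group, tested on simulated data. The SE is the absolute log2 fold change divided by the square root of F. Alternatives were DESeq2 1.42.0, limma-voom (limma 3.58.1), RLE size factors, leaving genes unfiltered or asking for 1 CPM in 4 libraries, fitting only the 8 libraries compared, a replicate block, same-sex controls, each BAF155 cKO lane, each library left out and, chosen after seeing the data, sex as a term. No 2 replicates of a group agreed within sampling noise (chi-square per gene 3.09 to 50.2).

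The 9 genes, the gene lists and the tests were chosen with earlier results of these data known. Beside the 9, the text names Smarcc1 and Pax6, the 2 called genes of smallest adjusted p in each direction of the list of 23, every called relative (the most abundant where none was called) and the 5 genes nearest to Eomes and 3 nearest to each other gene.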

Additional observations from a re-analysis of the deposited data

Results flagged for a closer look

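For 5 of the 9 genes BAF155 cKO differed from the Pax6-labelled libraries by the direct test. The log2 fold change was 0.59 for Btg2, 0.63 for Sstr2, 0.49 for Mfap4 and 0.86 for Rhbdl3, and -1.39 for Tac2. For Btg2, Sstr2, Mfap4 and Rhbdl3 all 4 BAF155 cKO libraries lay above all 4 Pax6-labelled libraries, and for Tac2 all 4 lay below, where 7.5% of all genes tested lay wholly above and 7.83% wholly below. The contrast sets female against male libraries. None of the 5 was called with sex as a term, where only 6 of the 16511 genes tested were called higher and 7 lower. For none of the 9 genes did 1 library of a group stand apart from the other 3 by Dixon's test. With 4 values this test asks for a gap that takes up most of the range. It thus says little about the single libraries noted above as standing above their group.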

How the results depend on the processing

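Against control, the calls of Eomes, Tac2 and Sstr2 held in both groups under all 19 alternatives for BAF155 cKO and all 17 for the Pax6-labelled libraries, where those of Btg2 and Rhbdl3 also held. In BAF155 cKO, 1 of the 9 genes was called higher by DESeq2 and with lane 1 alone, and 5 lower with sex as a term or with same-sex controls. Without single libraries the counts ran from 0 to 1 higher and 3 to 5 lower in BAF155 cKO, 5 to 6 lower in the Pax6-labelled libraries, and 3 to 4 higher and 0 to 1 lower in the direct contrast. Directly, 0 were called in either direction with sex as a term. The lower count was 0 under limma-voom, lane 1 alone and lane 3 alone, and the higher count 1 with lane 3 alone. Of all genes, 998 were higher and 1248 lower than control in BAF155 cKO, against 379 and 656 in a fit of 8 libraries, 2085 and 2449 with sex as a term, 1822 and 2472 with female controls, and 258 and 424 with lane 1 alone; without single libraries 346 to 1973 were higher and 655 to 2100 lower. In the Pax6-labelled libraries 2745 were higher and 3121 lower, against 744 and 1028 with sex as a term and 530 and 845 with male controls, and 1732 to 2908 and 2093 to 3693 without single libraries. Directly 379 were higher and 332 lower, against 722 and 617 by DESeq2, 6 and 7 with sex as a term, 142 and 67 with lane 3 alone, 164 lower with lane 1 alone, and 158 to 419 and 143 to 367 without single libraries. With the replicate number as a block the direct counts were 250 and 247, and Mfap4 was no longer called (adjusted p = 0.0633). Whether the numbers pair the libraries was not settled. Same-numbered libraries of 2 groups correlated at -0.23 to 0.38 in their deviations from the group means. The best match was sought in 1 direction only, from each library of the first group to those of the second. Replicate 1 of the first group matched replicate 1 of the second best in every comparison (0.26, 0.12 and 0.38). Replicate 2 did so with replicate 2 in the direct one only (0.32). Partners were shared, as BAF155 cKO replicate 4 also matched control replicate 1 best. Signs turned for genes not called. In BAF155 cKO these were Btg2 (0.11) and Gadd45g (0.04) with lane 1 alone, and both without single libraries (-0.11 to 0.03 and -0.18 to 0.06). Directly they were Eomes (-0.26) and Insm1 (-0.27) with sex as a term, Hes6 with lane 1 alone (0.06), and Eomes (-0.03) and Insm1 (-0.13) with lane 3 alone, and without single libraries Insm1 (-0.05 to 0.22) and Hes6 (-0.07 to 0.04). The causes were not tested. Tac2, with 6 to 9 reads per BAF155 cKO library, rests on the fewest reads of the 9 genes.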

Other observations

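Within control, the 2 female libraries stood above the 2 male ones in mean level for 8 of the 9 genes, given here without a test. The share of all genes with this order was not taken. For Mfap4, Sstr2 and Tac2 the single libraries of the 2 sexes overlapped. Mitochondrial reads also differed, at 2.27 and 2.18% in the male and 1.21 and 1.38% in the female controls. Sex thus cannot be told apart from other differences between these pairs. Rhbdl3 was at 79.2 CPM on average in female and 50.9 CPM in male controls, Gadd45g at 47.3 and 31 CPM, Eomes at 293 and 201 CPM and Insm1 at 165 and 126 CPM. Tac2 alone was lower in female controls, at 4.28 CPM against 4.98 CPM in male controls. The spread within the Pax6-labelled libraries was small for several genes: the coefficient of variation was 0.64% for Btg2, 2.63% for Insm1 and 4.25% for Eomes, against 11.3%, 20.1% and 22.9% in control. For Gadd45g it was 22.2% in the Pax6-labelled libraries and 24.5% in control.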
